A study of Homo sapiens with 12 samples.

Results

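The leukocyte immunoglobulin-like receptors are a family of cell surface receptors encoded side by side in the leukocyte receptor complex on chromosome 19. The genes examined here were 9 of the 58233 genes in the table: 4 activating receptors (LILRA1, LILRA2, LILRA5 and LILRA6) and 5 inhibitory receptors (LILRB1, LILRB2, LILRB3, LILRB4 and the collagen receptor LAIR1, a relative in the same complex). They were selected by symbol, and they were chosen with earlier results of these same libraries known. Their values are therefore given as a description, without a test of the members themselves.

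Receptors of the LILRA type have a short cytoplasmic tail and signal through the adaptor FCER1G (the Fc receptor common gamma chain). Receptors of the LILRB type and LAIR1 carry inhibitory tyrosine motifs that Src family kinases phosphorylate and that recruit the phosphatases PTPN6 (SHP-1) and PTPN11 (SHP-2). They are best known from monocytes, macrophages, dendritic cells and granulocytes, where they set the threshold of myeloid activation, and LILRB4 is also a surface marker of monocytic leukaemia.

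The libraries came from HL-60, a human leukaemia line established from acute myeloid disease, with a myeloblast to promyelocyte phenotype, labelled as wild type. There were 12 libraries, 3 per treatment: untreated cells, 100 nM ATRA (all-trans retinoic acid, the ligand of the retinoic acid receptors), 500 nM palbociclib (an inhibitor of the cyclin-dependent kinases CDK4 and CDK6) and both agents at those doses (the combination). All were sampled at 3 h, all groups share the one cell line, and the labels name no vehicle for the untreated cells. Values are RPKM, that is reads scaled by gene length and by the library's total, rounded by the authors to whole numbers, so a gene listed at 0 may still have had reads. The depth of each library is unknown, and the RPKM of 1 library summed to between 358455 and 390247.

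Of the 8 markers of myeloid blasts and promyelocytes, all but ELANE, at 0 to 1 RPKM, were above 0 in every library. Their sum was 1514 to 1998 RPKM per library, led by MPO at 1077 to 1579. The 4 T cell and the 4 erythroid and megakaryocytic markers were listed at 0 throughout. The monocyte markers CD14 and FCGR3A were listed at 0 in every library, while CSF1R and CX3CR1 were each at 0 to 1 RPKM. Of 5 neutrophil markers, LTF, MMP9 and FCGR3B were listed at 0, while the sum was 6 to 7 RPKM in untreated cells, 11 to 18 with ATRA, 7 to 9 with palbociclib and 12 to 21 with the combination, carried by CSF3R and CXCR2. The B cell marker MS4A1 was listed at 0 in every library and CD79A at 0 without ATRA and at 1 in every library given ATRA. Of 4 NK cell markers GNLY, KLRD1 and NCAM1 were listed at 0, with NKG7 at 5 to 10 RPKM. The neutrophil sum moved with ATRA as LILRA5 and LILRB4 below did, and its part in their levels was not tested. In bulk RNA, more cells with a transcript and more transcript per cell cannot be told apart.

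The 9 genes lay on chromosome 19 of GRCh38 (chr19:54216278-54670359, 454.1 kb) in 2 runs. LILRB3, LILRA6, LILRB2, LILRA5 and LAIR1 were on the minus strand, and LILRA2, LILRA1, LILRB1 and LILRB4 followed on the plus strand after a gap of 202.4 kb. Each is annotated as protein coding in GENCODE 44. Some neighbours had like levels in untreated cells: LILRB3, LILRA6, LILRB2 and LILRA5 were all listed at 0, and LILRA1 and LILRB1, 14.8 kb apart, were at 1 to 2 RPKM. Others did not: LILRA5 and LAIR1, 38.2 kb apart, were at 0 and 9, and LILRB1 and LILRB4, 5.9 kb apart, differed in every library.

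**Figure D1:**
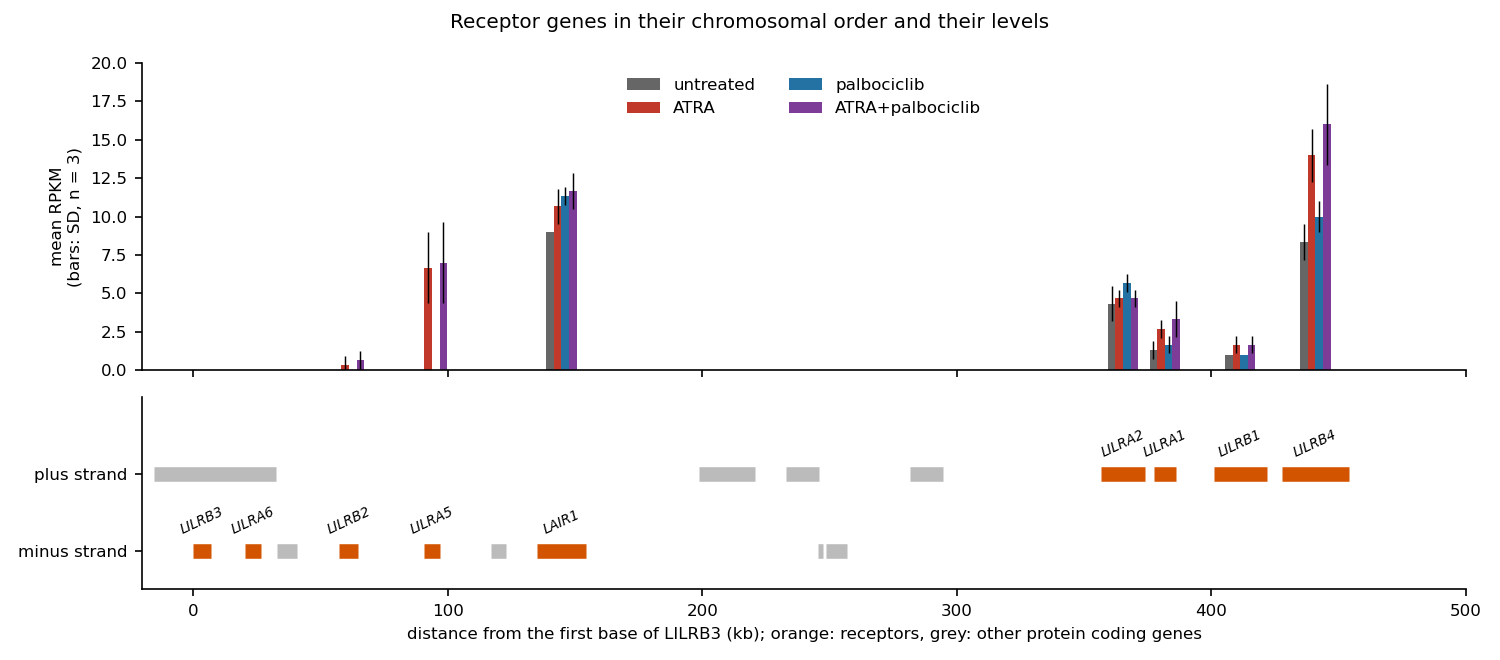
Mean RPKM of each receptor by treatment (upper panel, bars with SD, n = 3) above the gene's place on the chromosome (lower panel, distance in kb from the first base of LILRB3, by strand). LILRB4 and LAIR1 carry the tallest bars, LILRA5 has bars only in the groups given ATRA, and LILRB3 and LILRA6 have none.

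LILRA5 was the receptor that went from no listed signal to a clear one. Its RefSeq promoter (250 bases before to 50 after the start, GRCh38.p14) is shown because its level separated the groups given ATRA from the others. Next to it is a promoter window of LILRA1, an activating receptor of the other run, 79.6% identical to it over 279 aligned bases. The promoter of LILRB4, the receptor with the highest level after ATRA, is shown last. Capitals mark a match to a searched motif: in LILRA5 the C/EBP motif TTGCNNAA, whose first base lies 119 bases before the start, and in LILRB4 the retinoid receptor hexamer GGTTCA, 113 bases before. The windows are chr19:54313117-54313416 (minus strand) for LILRA5, chr19:54593382-54593681 (plus strand) for LILRA1 and chr19:54662735-54663034 (plus strand) for LILRB4, the last at a start inside the annotated gene.
LILRA5: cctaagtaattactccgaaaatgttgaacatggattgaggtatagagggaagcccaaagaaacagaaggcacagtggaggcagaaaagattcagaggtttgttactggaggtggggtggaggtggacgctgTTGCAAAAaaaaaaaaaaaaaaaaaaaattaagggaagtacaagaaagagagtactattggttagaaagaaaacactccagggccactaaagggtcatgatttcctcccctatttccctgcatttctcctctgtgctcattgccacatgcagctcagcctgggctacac
LILRA1: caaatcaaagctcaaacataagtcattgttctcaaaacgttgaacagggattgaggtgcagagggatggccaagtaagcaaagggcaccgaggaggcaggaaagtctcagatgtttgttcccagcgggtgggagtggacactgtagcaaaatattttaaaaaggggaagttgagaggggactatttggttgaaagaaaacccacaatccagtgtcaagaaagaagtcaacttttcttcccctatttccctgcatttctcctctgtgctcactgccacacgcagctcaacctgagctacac
LILRB4: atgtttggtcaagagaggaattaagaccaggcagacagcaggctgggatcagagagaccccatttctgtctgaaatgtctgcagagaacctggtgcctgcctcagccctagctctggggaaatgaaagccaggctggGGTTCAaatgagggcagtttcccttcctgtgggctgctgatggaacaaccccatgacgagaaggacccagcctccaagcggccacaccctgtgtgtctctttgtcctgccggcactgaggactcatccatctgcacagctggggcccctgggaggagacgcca

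The table of promoters held 15 windows for 8 of the members, with no entry for LILRA6. They were searched on both strands for AGGTCA and GGTTCA (hexamers bound by retinoic acid receptors), the direct repeat of AGGTCA with a spacer of 5 bases (which contains AGGTCA), the PU.1 core GAGGAAG, TTGCNNAA and the TATA box TATAAA. No window held AGGTCA, the direct repeat or the TATA box. The share of all 35116 promoters with a match was 13.8% for AGGTCA, 8.6% for GGTTCA, 13.6% for GAGGAAG, 10.5% for TTGCNNAA and 11.5% for the TATA box. GAGGAAG was found in both windows of LAIR1 and in 1 window of LILRB1. A match is a run of letters and does not show that a factor is bound there. The LILRA5 window was also similar to windows of LILRB1 (79.9% and 80.5%) and LILRB2 (78.2% over 280 bases). Other windows of LILRA1 (57.1%), LILRB1 (55.4%) and LILRB2 (52.0%) were less alike. Which start these cells use was not determined, and the part of promoter sequence in the levels was not tested.

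In untreated cells the receptors stood at 4 levels. LAIR1 was listed at 9 RPKM in all 3 libraries and LILRB4 at 7, 9 and 9, and these neighbours in the order overlapped. LILRA2 followed at 3, 5 and 5, below both of them in every library. LILRA1 (1, 2 and 1) and LILRB1 (1, 1 and 1) came next and overlapped, and LILRA5, LILRA6, LILRB2 and LILRB3 were listed at 0. With the combination the order was LILRB4 (mean 16 RPKM), LAIR1 (11.7), LILRA5 (7.0), LILRA2 (4.67), LILRA1 (3.33), LILRB1 (1.67) and LILRB2 (0.67). There LILRB4 and LAIR1 overlapped at 13, LAIR1 did not overlap LILRA5, and from LILRA5 downward each neighbour shared a value with the next.

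**Figure D2:**
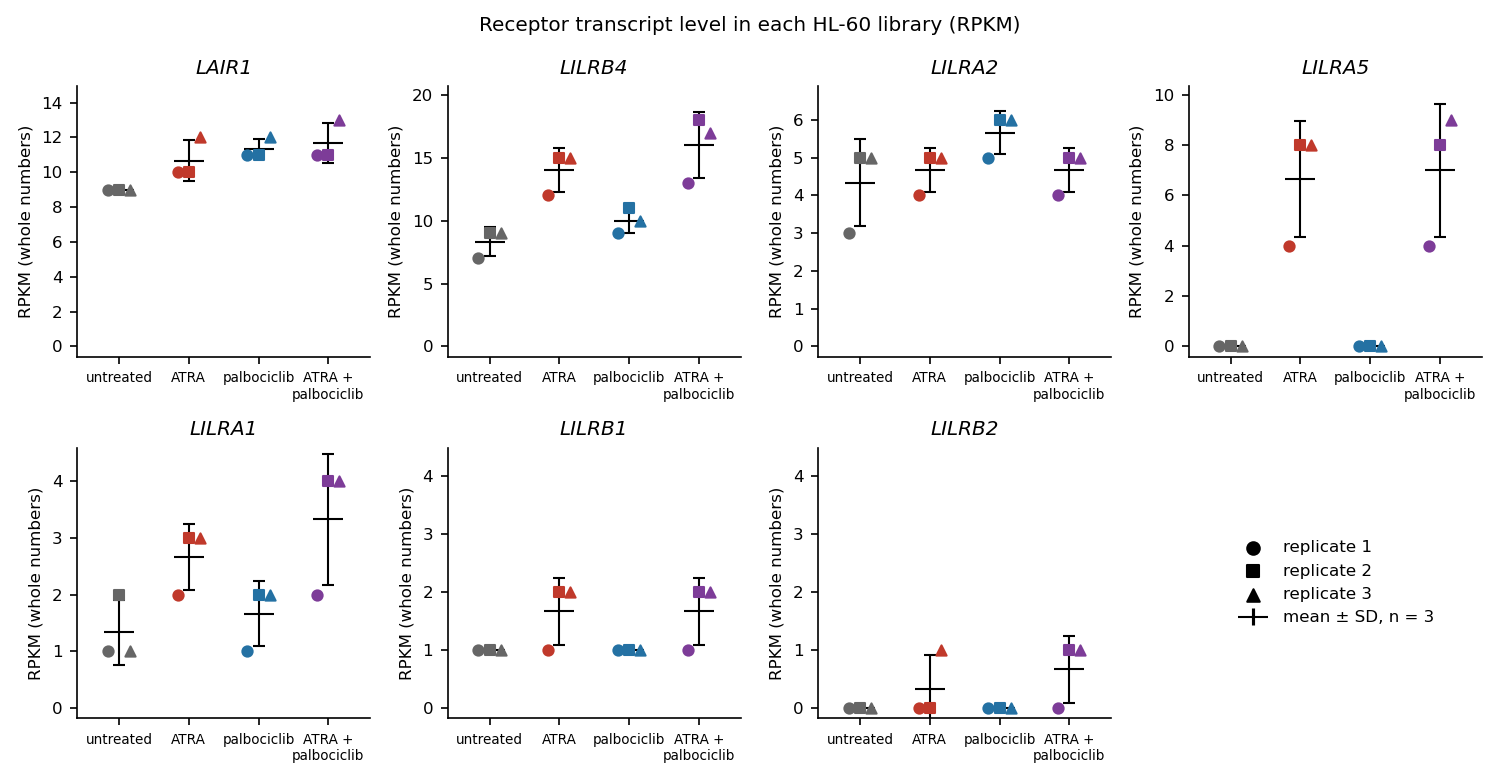
RPKM of the 7 receptors with a value above 0, in each of the 12 libraries (points, marked by replicate number) with the group mean and SD (n = 3). LILRA5 is at 0 without ATRA and at 4 to 9 with it, LILRB4 is above all untreated libraries in both groups given ATRA, and replicate 1 is the lowest point, alone or tied, in most panels.

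LILRA5, an activating receptor with a short tail, was listed at 0 in the 3 untreated libraries and in the 3 palbociclib libraries. It was listed at 4, 8 and 8 RPKM with ATRA and at 4, 8 and 9 with the combination. The groups given ATRA did not overlap those without it, and replicate 1 was the lower one in both. No fold is given, because the table has no value above 0 to set it against. LILRA5 passed the filter for testing (at least 5 RPKM in at least 3 libraries) only through the groups where it was high, so that it had to differ. Between ATRA and the combination the difference was 0.06 on the scale of log2(RPKM + 0.1), with a 95% interval of -0.88 to 0.99, so that these values leave a wide range for any contribution of palbociclib. Its exons overlap those of a lncRNA on the same strand (ENSG00000275210) over 4.8% of their length, and that lncRNA was listed at 0 in every library.

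LILRB4 is an inhibitory receptor with APOE among its reported ligands. It was listed at 7, 9 and 9 RPKM in untreated cells, 12, 15 and 15 with ATRA, 9, 11 and 10 with palbociclib and 13, 18 and 17 with the combination. All libraries given ATRA were above all those without it, while palbociclib and untreated cells overlapped at 9. The log2 difference from untreated cells was 0.74 ± 0.15 (SE) with ATRA (95% interval 0.42 to 1.07), 0.27 ± 0.15 with palbociclib (-0.06 to 0.59) and 0.93 ± 0.15 with the combination (0.60 to 1.26). The combination differed from ATRA by 0.19 ± 0.15 (-0.14 to 0.51) and from palbociclib by 0.66 ± 0.15 (0.34 to 0.99). In this receptor the SE fell to 0.053 once the replicate number was kept as a block. In that fit the interval for the combination against ATRA, 2 groups taken as paired, was 0.06 to 0.31. It lay above 0 but was not called.

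LAIR1, an inhibitory receptor for collagens, was listed at 9, 9 and 9 RPKM in untreated cells, 10, 10 and 12 with ATRA, 11, 11 and 12 with palbociclib and 11, 11 and 13 with the combination. Every treated library was above every untreated one, and the 3 treated groups overlapped each other. The log2 difference from untreated cells was 0.24 ± 0.09 (SE) with ATRA (95% interval 0.04 to 0.43), 0.33 ± 0.09 with palbociclib (0.13 to 0.52) and 0.37 ± 0.09 with the combination (0.17 to 0.56). None of these passed the threshold of an adjusted p under 0.001. LAIR1 was the only tested receptor whose groups did not overlap between palbociclib and untreated cells, at a step of 2 to 3 RPKM on values rounded to 1.

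LILRA2, an activating receptor, was listed at 3, 5 and 5 RPKM in untreated cells, 4, 5 and 5 with ATRA, 5, 6 and 6 with palbociclib and 4, 5 and 5 with the combination. The values with ATRA and with the combination were identical, and all 4 groups shared the value 5. The log2 difference from untreated cells was 0.13 ± 0.19 (SE) with ATRA (95% interval -0.29 to 0.56) and 0.41 ± 0.19 with palbociclib (-0.01 to 0.83). The combination differed from palbociclib by -0.28 ± 0.19 (-0.70 to 0.15). With the replicate number as a block this interval was -0.50 to -0.05, below 0 but not called. LILRA2 shares 15.8% of its exon length with a lncRNA on the same strand (ENSG00000269271) that was listed at 0, so reads in that stretch may have been assigned to neither gene.

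The remaining receptors were at or near the rounding step. LILRA1, an activating receptor, was listed at 1, 2 and 1 RPKM in untreated cells, 2, 3 and 3 with ATRA, 1, 2 and 2 with palbociclib and 2, 4 and 4 with the combination. LILRB1, an inhibitory receptor for HLA class I, was at 1 in all untreated and palbociclib libraries and at 1, 2 and 2 with ATRA and with the combination. LILRB2, a related inhibitory receptor for HLA class I, was above 0 in 1 ATRA library and 2 libraries of the combination, each at 1. In these 3 genes no library given ATRA was below any untreated library, but the groups overlapped and the steps were those of the rounding. LILRA6 and LILRB3 were listed at 0 in all 12 libraries.

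**Figure D3:**
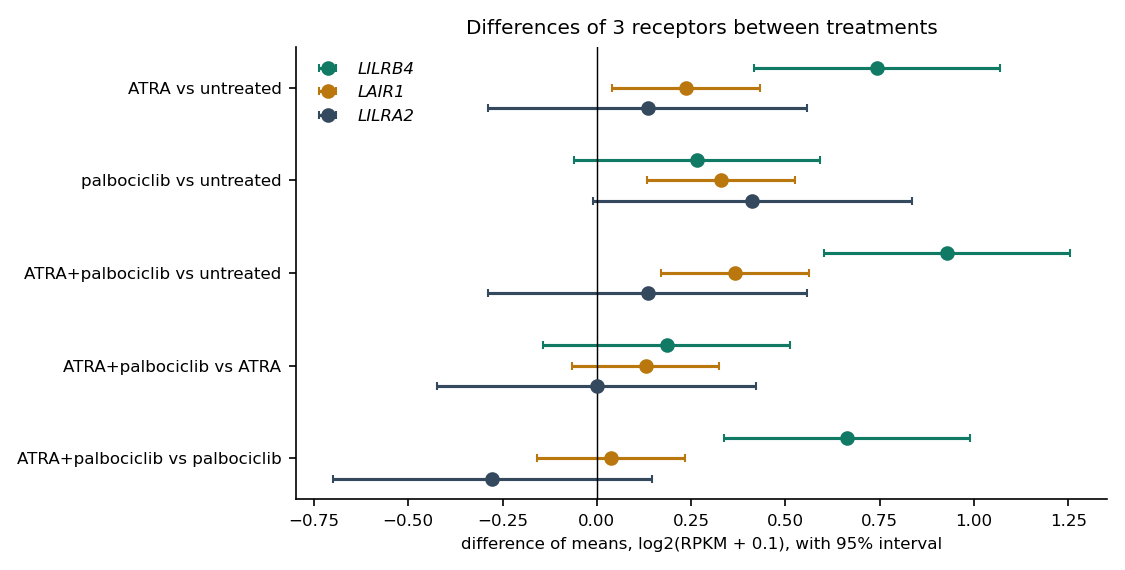
Difference between group means on the scale of log2(RPKM + 0.1) with 95% intervals from the fit over 12 libraries without the replicate block, for LILRB4, LAIR1 and LILRA2 in 5 comparisons. The intervals of LILRB4 lie above 0 in the comparisons of a group given ATRA with one without it, those of LAIR1 lie above 0 against untreated cells, and those of LILRA2 include 0 in all 5.

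Of the 9 receptors, 4 passed the filter (LILRA2, LILRA5, LILRB4 and LAIR1), 7 had at least 1 RPKM in at least 3 libraries, and 5 were above 0 in every library. Counts over the 4 describe genes chosen by their values, and the call of LILRA5 follows from how it passed the filter, so nothing is read from these counts or from the shares of all genes beside them. With ATRA against untreated cells, 1 of the 4 was called higher (LILRA5), where 2.77% of the 7820 tested genes were. With palbociclib 0 were called in either direction, and 0.0128% of all genes were called higher. Genes called lower are not counted in these shares. With the combination 2 were called higher (LILRA5 and LILRB4), against 3.76%. The combination against ATRA gave 0 of the 4, with 0% of all genes called higher. The combination against palbociclib gave 1 (LILRA5), with 2.11% of all genes called higher. No receptor and 0% of all genes were called for a departure from additivity, which is the palbociclib effect with ATRA minus that without it. By limma the departure on the log2 scale was -0.08 ± 0.21 (SE, 95% interval -0.54 to 0.38) for LILRB4. It was -0.20 ± 0.13 (-0.48 to 0.08) for LAIR1 and -0.41 ± 0.27 (-1.01 to 0.19) for LILRA2. The interval of LILRB4 leaves room for departures in either direction, those of LAIR1 and LILRA2 mainly for departures below 0. In the fit blocked by replicate, LAIR1 (-0.39 to -0.009) and LILRA2 (-0.73 to -0.09) lay below 0, and neither was called. LILRB4 still spanned 0 there (-0.25 to 0.09). That fit also pairs the untreated libraries, whose pairing was weak.

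The groups did not overlap, with the treated group higher, for 3 of the 4 receptors with ATRA (LILRA5, LILRB4 and LAIR1), where 12.4% of tested genes did so. With palbociclib this held for LAIR1 (5.74% of all genes), with the combination for the same 3 as with ATRA (15.3%), for the combination against palbociclib for LILRA5 and LILRB4 (8.26%) and for none of the 4 between the combination and ATRA (0.87%). The comparisons with untreated cells share those 3 libraries. With LILRA5 left out, the median log2 difference of the other 3 tested receptors was that of LAIR1, 0.24 with ATRA and 0.37 with the combination, beside -0.01 for all genes in both.

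With the replicate number as a block, which the treated groups support (their same-numbered libraries deviated together), LILRB4 was called as well as LILRA5 in the combination against palbociclib, with 3.58% of all genes called higher. The block also brought LILRB4 past the threshold with ATRA against untreated cells, at 4.81% of all genes, and left the 2 receptors called with the combination, at 6.57%. The untreated libraries paired by number only weakly (r 0.088 to 0.367 with ATRA and 0.045 to 0.305 with the combination). Block calls against untreated cells, here and below, thus use a pairing that those libraries bear out only in part. Without the block, the call of LILRB4 for the combination was lost when any 1 of 10 libraries was left out and was kept when ATRA replicate 1 or combination replicate 1 was left out. Its log2 difference stayed between 0.81 and 1.07 over all 25 alternatives.

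Summed over the 9 receptors, the level per library was 24 ± 2.65 RPKM (SD, n = 3) in untreated cells, 40.7 ± 6.81 with ATRA, 29.7 ± 2.31 with palbociclib and 45.0 ± 8.72 with the combination. The activating receptors made up 23.3% ± 4.0 of this sum in untreated cells, 34.1% ± 3.5 with ATRA, 24.6% ± 2.08 with palbociclib and 32.9% ± 3.71 with the combination. With LILRA5 left out the activating share was 21.6% ± 1.17 with ATRA and 20.9% ± 1.36 with the combination. The higher activating share in the groups given ATRA was therefore that of LILRA5. LILRB4 made up 34.6% ± 1.35 of the sum in untreated cells and 34.6% ± 1.91 with ATRA, while LAIR1 went from 37.8% ± 4.44 to 26.6% ± 3.52.

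How far each receptor can be read depends on how unlike it is to its relatives, because the counting left out reads that map to more than 1 place. Of the 50-base stretches in the exons of LILRA6, 35.0% also occur in another annotated gene, 33.5% in LILRB3. For LILRB3 the share was 30.2%, with 22.9% in LILRA6. It was 23.1% for LILRA2, 16.8% for LILRB1 and 14.4% for LILRB2, and between 2.2% (LILRB4) and 6.0% (LILRA1) for the other receptors. For LILRA2 most of it, 18.0%, was with ENSG00000269271, the lncRNA that overlaps its own exons, and 0.9% with LILRA1. That part is the same place on the chromosome and not likeness to a relative. At 100 bases the shares fell to 14.3% for LILRA6, 12.2% for LILRB3 and 17.1% for LILRA2 (all with that lncRNA), and to 0 for LILRA1, LILRA5, LAIR1 and LILRB4. The receptors on which the comparisons above turn, LILRA5, LILRB4 and LAIR1, were thus among those with the least shared sequence.

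Of the 50-base stretches, 69.8% in LILRB3 and 65% in LILRA6 occur in no other gene, so reads from those stretches could have been counted. The values of 0 for this pair are therefore a limit of the table over part of each gene and not over the whole.

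**Figure D4:**
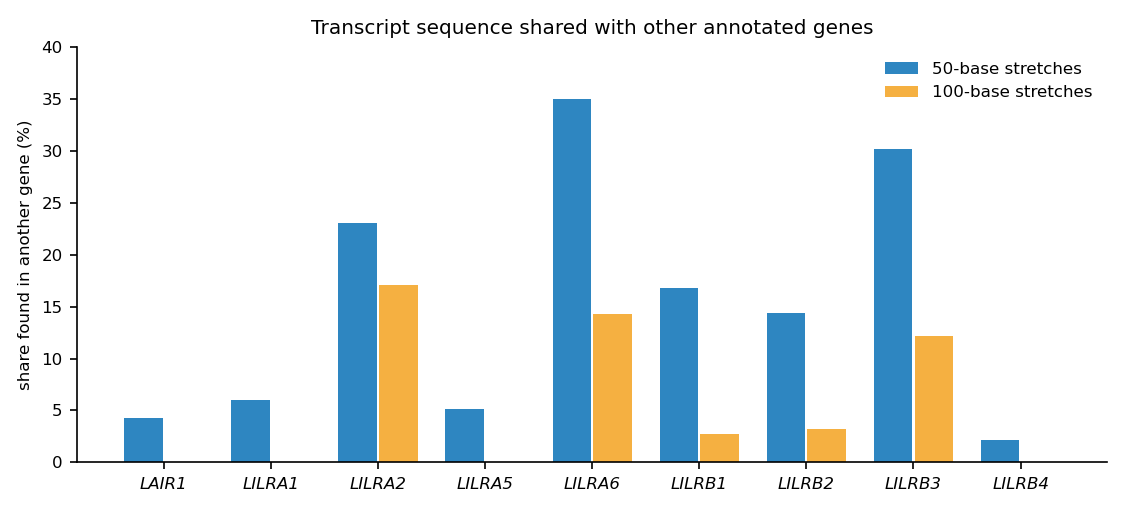
Share of the 50-base and 100-base stretches in the exons of each receptor that also occur in another annotated gene (bars, in %). LILRA6 and LILRB3 have the tallest bars at 50 bases and LILRA2 at 100 bases, while LILRB4 is lowest at 50 bases. The bars of LILRA2 are mostly (50 bases) or wholly (100 bases) the lncRNA that overlaps its exons.

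Most signalling partners stood above the receptors in level. Of the 10 listed, all were tested, and 3 rose with ATRA: FGR and LYN, Src family kinases, and PTPN6, the phosphatase recruited by inhibitory receptors. Of all 7820 tested genes, 2.77% were called higher with ATRA. Nothing is read from the counts of this list or the following ones beside such shares. The lists were chosen with earlier results known, and some of their genes were tested only because of the groups where they were high. FGR was listed at 0 in all untreated libraries, at 0, 0 and 1 RPKM with palbociclib, at 23, 39 and 48 with ATRA and at 27, 44 and 53 with the combination. As with LILRA5, replicate 1 was the lowest of the group, no fold is given against 0, and FGR passed the filter only through the groups where it was high, so that its call is no support and its p is not given.

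LYN was at 19, 20 and 19 RPKM in untreated cells, 30, 33 and 32 with ATRA, 18, 21 and 20 with palbociclib and 30, 33 and 32 with the combination, a log2 difference of 0.71 ± 0.07 (SE) for ATRA (limma, adjusted p = 4.21e-05, and 4.90e-06 to 0.0017 over the alternatives). PTPN6 was at 45, 49 and 48 in untreated cells, 73, 80 and 81 with ATRA, 54, 55 and 59 with palbociclib and 78, 85 and 86 with the combination, a log2 difference of 0.72 ± 0.06 for ATRA (limma, adjusted p = 2.63e-05, and 2.75e-06 to 0.0028). The same 3 genes rose with the combination against untreated cells (3.76% of all tested genes were called higher) and against palbociclib (2.11%). With the replicate block FCER1G was called as well for the combination against untreated cells (log2 difference 0.42 ± 0.061 SE, limma adjusted p = 0.00066). None of the 10 was called with palbociclib alone or between the combination and ATRA. The median log2 difference of the list with ATRA was 0.24, beside -0.01 for all genes.

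The adaptor FCER1G, through which activating receptors signal, was at 14, 20 and 21 RPKM in untreated cells and 19, 23 and 24 with ATRA, which did not pass the test (log2 difference 0.28 ± 0.18 SE, limma adjusted p = 0.31). SYK, the kinase downstream of that adaptor, was at 30, 26 and 29 and at 29, 28 and 28. PTPN11 was at 40, 39 and 38 in untreated cells and 33, 40 and 39 with ATRA, with an adjusted p = 0.74 by limma. The adaptor and SYK were thus present at higher RPKM than any receptor in untreated cells, where LILRA5 itself was listed at 0.

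**Figure D5:**
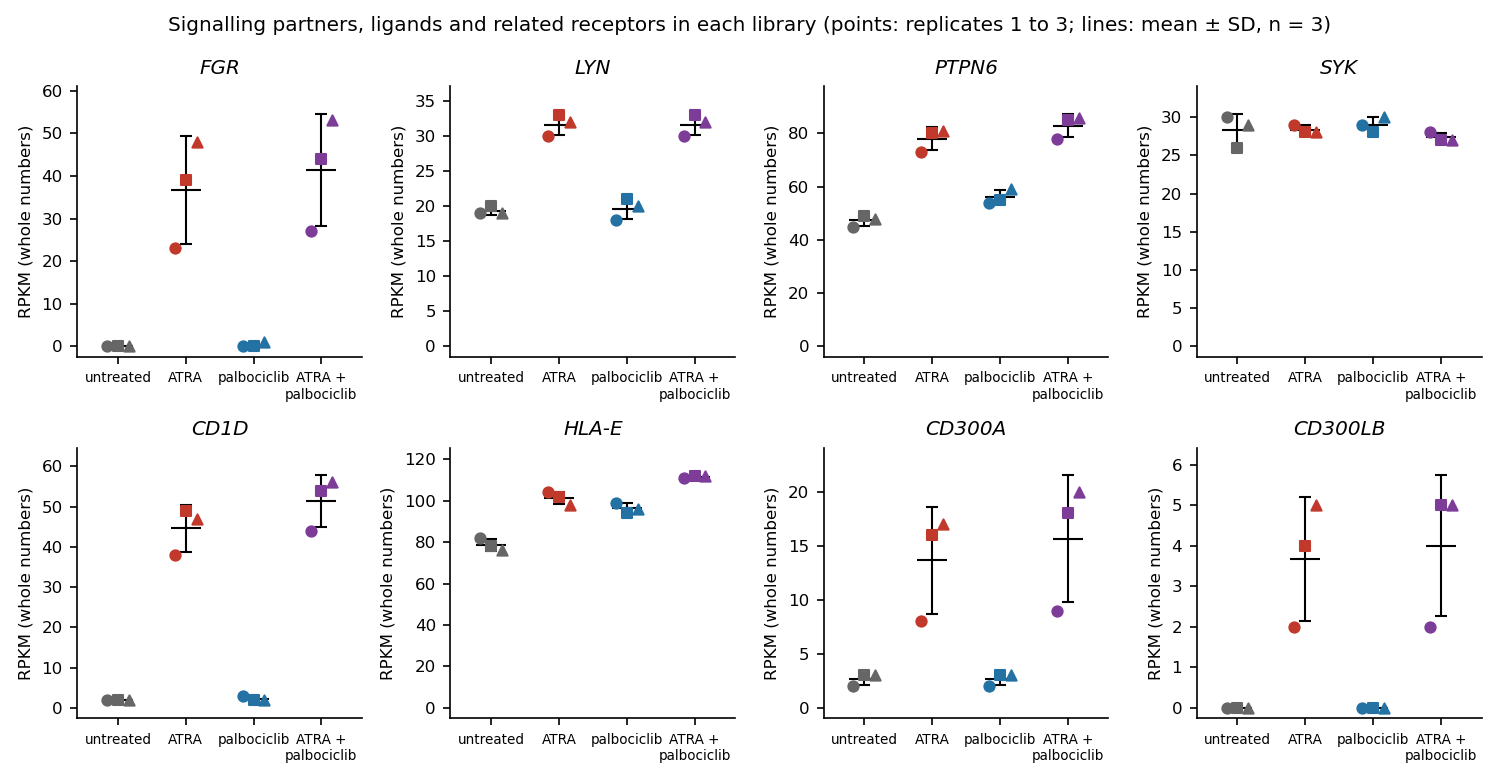
RPKM of 4 signalling partners, 2 ligands and 2 CD300 receptors in each library (points are replicates, lines are mean and SD, n = 3). FGR, CD1D and CD300LB are at or near 0 without ATRA and well above it with ATRA, LYN and PTPN6 step up from values already present, and SYK overlaps in all groups.

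Of 19 listed ligands of these receptors, 11 were tested, and 2 rose with ATRA and with the combination. The shares of all tested genes called higher were 2.77% and 3.76%. CD1D, a lipid-presenting molecule of the HLA class I fold, was at 2 RPKM in all untreated libraries, 38, 49 and 47 with ATRA, 3, 2 and 2 with palbociclib and 44, 54 and 56 with the combination. Its log2 difference was 4.41 ± 0.16 (SE) with ATRA, and it was also called against palbociclib. CD1D passed the filter of 5 RPKM only through the groups where it was high. With a filter of 1 RPKM, which its untreated libraries also pass, its limma adjusted p was 1.39e-07 for ATRA. It was 1.90e-07 for the combination against palbociclib. HLA-E, a non-classical HLA class I molecule, was at 82, 78 and 76 in untreated cells, 104, 102 and 98 with ATRA, 99, 94 and 96 with palbociclib and 111, 112 and 112 with the combination. Its log2 difference was 0.37 ± 0.05 with ATRA (limma, adjusted p = 0.00033, and 0.00010 to 0.0077 over the alternatives, at or above the threshold in 7 of 25). HLA-B, at 424 to 455 RPKM in untreated cells the most abundant HLA gene of the list, was at 440 to 575 with ATRA and was not called (limma adjusted p = 0.43). With the replicate block, S100A9, a calcium-binding protein of myeloid cells, was called as well with ATRA (log2 difference 0.27 ± 0.037 SE, limma adjusted p = 0.00072) and with the combination, and HLA-G with the combination (0.33 ± 0.041, limma adjusted p = 0.00030). The known LILRB4 ligand APOE was listed at 0 in every library, as were ANGPTL2 and the LAIR1 ligands COL17A1, C1QA, C1QB and C1QC.

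Of 22 other activating or inhibitory myeloid receptors outside the complex, 9 were tested. CD300LB, an activating receptor, and SIRPA, the inhibitory receptor for CD47, rose with ATRA, where 2.77% of all tested genes were called higher. CD300LB was listed at 0 in every library without ATRA, at 2, 4 and 5 RPKM with ATRA and at 2, 5 and 5 with the combination. It passed the filter only through the groups where it was high, so its p is not given. SIRPA was at 24, 23 and 24 in untreated cells and 31, 33 and 35 with ATRA, a log2 difference of 0.48 ± 0.06 (SE, limma adjusted p = 0.00040, and 0.00010 to 0.0064). With the combination against untreated cells 4 were called, where 3.76% of all tested genes were called higher. The additions were CD300A, an inhibitory receptor (2, 3 and 3 RPKM in untreated cells and 9, 18 and 20 with the combination), and PECAM1, an adhesion molecule with inhibitory motifs (2, 2 and 2, and 4, 5 and 6). CD300A and PECAM1 also reached 5 RPKM only with ATRA. With a filter of 1 RPKM, which their untreated libraries also pass, neither was called for the combination against untreated cells (limma adjusted p = 0.0023 for CD300A and 0.0028 for PECAM1), and over the 25 alternatives the calls were lost in 11 for CD300A and 15 for PECAM1.

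CD300A, CD300LB and SIRPA were called for the combination against palbociclib, where 2.11% of all tested genes were called higher. These calls were lost in 16, 3 and 18 of the 25 alternatives. None of the 9 was called for palbociclib or between the combination and ATRA. Without the replicate block, no tested gene of any of these lists was called lower. CLEC12A, an inhibitory lectin receptor of myeloid cells chosen after its values were seen, was at 11, 10 and 12 RPKM in untreated cells and 7, 6 and 7 with ATRA (log2 difference -0.71 ± 0.13 SE, limma adjusted p = 0.0026), short of the threshold. With the block it was called lower with ATRA (limma adjusted p = 0.000125), with the combination (8.41e-05) and for the combination against palbociclib (9.79e-05). The block also called FCGR1A, the high-affinity IgG receptor, lower for the combination against palbociclib (log2 difference -0.55 ± 0.067 SE, limma adjusted p = 0.00053). It called SIRPB1 higher in the same 3 comparisons, CD300LF higher with ATRA and with the combination, CD300A higher with ATRA, and PECAM1 higher with ATRA and for the combination against palbociclib, though each of these 4 reached 5 RPKM only with ATRA. The lists were chosen with earlier results of these data known, as the receptors were, and leaving out ATRA replicate 2 lowered the count of calls with ATRA over all lists from 7 to 4. For the combination against palbociclib the count of 7 fell to 4 without palbociclib replicate 1 or 2 or combination replicate 3, and to 3 without combination replicate 2.

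The rest of the complex showed little. Of 13 related receptors and pseudogenes in the table, none passed the filter, and LAIR2, a secreted relative of LAIR1, was at 1 RPKM in all untreated and ATRA libraries and at 2 in all palbociclib libraries. FCAR, the IgA receptor, was at 2 in all untreated and ATRA libraries, and LILRB5 and LILRA4 were listed at 0. Among 29 protein coding neighbours within 250 kb of the receptors, 9 were tested and 0 were called by limma in any of the 6 comparisons without the replicate block. With it MBOAT7, a lysophospholipid acyltransferase, was called higher with ATRA (log2 difference 0.32 ± 0.044 SE, limma adjusted p = 0.00080). With ATRA against untreated cells, the groups of 1 of the 9 tested neighbours (RPS9) did not overlap with ATRA higher, where 12.4% of tested genes did so. Those of 1 (LENG9) did not overlap with ATRA lower, for which the share of all genes was not computed. Nothing is read from these counts. RPS9, a ribosomal protein gene whose annotated span runs opposite LILRB3 and LILRA6, was at 155 to 158 RPKM in untreated cells and 168 to 209 with ATRA (limma adjusted p = 0.19). Its exons do not overlap theirs.

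The genes most like the receptors were found by correlation, over the 12 libraries, with the mean centred log2 profile of the 4 tested receptors. The 5 highest were LCP2 (Pearson r = 0.997), MYBPH (0.996), VASP (0.996), NCF1B (0.996) and TBL2 (0.995). LCP2, an adaptor of immune receptor signalling, had means of 8.67 RPKM in untreated cells, 20.7 with ATRA, 10.3 with palbociclib and 22.3 with the combination. VASP, a regulator of actin filaments, had means of 26.7, 52.7, 30.0 and 54.3 in the same order. The points share libraries and treatment groups, and the profile mostly followed LILRA5, whose step from 0 was the largest of the 4. With a pseudocount of 1 these genes ranked 10th or lower, so the order among the closest genes rests on how low values are treated. For LILRB4 alone the closest genes were BMF (r = 0.988) and GOLPH3L (0.982), and for LILRA5 alone CD300LB was among the 5 closest (0.999).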

How the data were processed

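Gene expression was measured by RNA sequencing of poly(A) RNA in 12 libraries of HL-60 cells, grouped by the sample labels. The authors mapped reads to hg38 with HISAT2 and counted them with htseq-count in its default settings (versions not given in the sources used here), which leaves out reads mapping to several places. The deposited values are RPKM that the authors rounded to whole numbers, treated here as a score in steps of 1 RPKM, so no count model was used. How gene lengths were set is not given in the sources used here, the depth per library is unknown, and the kit's strand marking is not stated. The depth therefore gives no counting interval, and the error beside a value is the SD over 3 libraries.

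The receptors and all lists were chosen with earlier results of these data known. Genes with at least 5 RPKM in at least 3 libraries (7820) were fitted as log2(RPKM + 0.1) with limma 3.58.1 in R 4.3.3, 1 mean per group over all 12 libraries, eBayes with a trend, Benjamini-Hochberg adjustment within each comparison and a threshold of 0.001. That filter had been preferred to 1 RPKM after results of these data were known. Differences of low genes on this scale depend on the pseudocount and the rounding. They can be too small or, for a step from a listed 0, too large. The script was tested on simulated, rounded data. The libraries are labelled as replicates without saying whether they came from separate cultures. If they did not, p-values cover technical spread only.

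Replicate numbers 1 to 3 occur in every group. Deviations of same-numbered libraries from their group means correlated across genes. For ATRA, r was 0.782 to 0.908 with the combination and 0.497 to 0.751 with palbociclib. For palbociclib with the combination it was 0.438 to 0.702. The treated groups were therefore taken as paired by number. With untreated cells the lowest r of each group was 0.045 to 0.096, under the limit of 0.1. The fit with the replicate number as a block is given where it changes a call, and for some intervals.

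Named genes were the 9 receptors, the called members of each list with the largest differences, and the 5 genes closest in profile. Others were named for their role after their values were seen. Positions and exons are from GENCODE 44 on GRCh38, promoters from RefSeq on GRCh38.p14, aligned with Biopython 1.88. Tables and plots were made with Python 3.11.15 and matplotlib 3.10.9. LILRA3 was not analysed here. Some marker genes and 1 stretch of sequence are not reported here. Alternatives covered the filter, pseudocount, threshold, block, libraries in the fit, scaling, variance trend and each library left out, and 4 were added after the data had been seen.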

Additional observations from a re-analysis of the deposited data

How the results depend on the processing

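Every log2 difference of a called receptor kept its direction under all 25 alternatives. Of 596 recomputed differences, 584 moved by less than 1 SD between replicates (a wider limit for the departure) and 12 by more. Many of these could not move. The threshold, the block, the filter, the variance trend and a left-out library of another group do not change a difference of group means. The count is therefore no measure of stability. For the receptors, the count called with ATRA went from 1 to 2 at an adjusted p under 0.05, with the replicate block, with the block and a filter at 1 RPKM, and without all 4 libraries numbered 1, and to 3 with the block at 0.05. With palbociclib it went from 0 to 3 with the block at 0.05 and to 1 without the libraries numbered 1. With the combination it went from 2 to 1 with a filter at 1 RPKM, no filter, a filter at 1 RPKM and a pseudocount of 1, no variance trend and only the libraries compared, which leaves fewer samples. For the combination against palbociclib it went from 1 to 2 at 0.05, with the block, with the block at 0.05, with the block and a filter at 1 RPKM, and without the libraries numbered 1 (then LILRA5 higher and LILRA2 lower), and to 0 with only the libraries compared. Leaving out 1 library at a time gave 1 to 1 with ATRA, 0 to 0 with palbociclib, 1 to 2 with the combination, 0 to 0 against ATRA, 1 to 1 against palbociclib and 0 to 0 for the departure.

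Over the partner, ligand, receptor and neighbour lists together, the count called with ATRA went from 7 to 14 at 0.05, 14 with the block, 24 with the block at 0.05, 11 with the block and a filter at 1 RPKM, and 2 with only the libraries compared. With palbociclib it went from 0 to 1 at 0.05 and to 9 with the block at 0.05. With the combination it went from 9 to 17 at 0.05, 15 with the block, 30 with the block at 0.05 and 2 with only the libraries compared. Against palbociclib it went from 7 to 14 at 0.05, 11 with the block, 18 with the block at 0.05, 4 with a filter at 1 RPKM and a pseudocount of 1, and 1 with only the libraries compared. Leaving out 1 library gave 4 to 8 with ATRA, 6 to 9 with the combination and 3 to 7 against palbociclib, and 0 to 0 in the others. Receptors with at least 10% of their sequence shared numbered 5 at 50 bases and 3 at 100 bases, with LILRA2 in both counts through the lncRNA that overlaps it. None (0) of the 5 genes closest in profile stayed among the 5 highest with a pseudocount of 1. Where no cause is named above, the cause was not tested. The block, the filter on low values and the 3 libraries per group limit what can be called, and differences near the rounding step of 1 RPKM cannot be read.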
